A study of Mus musculus with 12 samples.

Results

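SCC-7 is a mouse squamous cell carcinoma line, and the expression it carries in culture is described here from 2 of the 12 samples of the series, SCC-7 (1) and SCC-7 (2). Both samples were total RNA of untreated SCC-7 cells grown in MEM with fetal calf serum, labelled with biotin and measured on the mouse WG-6 v2 BeadChip of Illumina. The other samples are tumors grown from this line in the floor of the mouth of nude mice, and they were not compared with the cells. The sources give neither the passage nor the clonality of the line, and nothing in the labels says that the 2 samples came from separate cultures, so the spread between them may be technical.

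Squamous carcinoma cells descend from the stratified epithelium that lines the mouth and covers the skin. Such epithelium is held together by desmosomes and adherens junctions, is stiffened by pairs of keratins and is anchored to its basement membrane by hemidesmosomes. During an epithelial-mesenchymal transition (EMT), transcription factors of the Snail, Zeb and Twist families lower the junction genes while vimentin and matrix genes come on. The arrays were therefore read for genes of these groups, for genes that mark other cell types, for positional genes, and for oncogenes and tumor suppressor genes. Members had been listed with earlier results of these data known.

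Each probe has 1 mean bead intensity per array. Its background was taken from 943 control rows, left after 11 with a median above 100 units over the 12 arrays were set aside. This cut limits their upper tail. The kinds of the control rows are not named, and the 943 were treated as negative controls. These had a median of 63.5 units on SCC-7 (1) and 62.6 units on SCC-7 (2), and the brightest of them reached 101.5 and 108.3 units. A probe was called detected on an array where its share of controls at least as bright, a one-sided detection p, was under 0.01, which here meant at least 88.8 units on SCC-7 (1) and 87.1 units on SCC-7 (2). A probe was called on when it was detected on both arrays. A gene was called on when at least 1 of its probes was on, off when no probe was detected on either array, and unsettled otherwise.

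By this rule 13562 of 45135 probes were detected on SCC-7 (1) and 13747 on SCC-7 (2), and 13123 (29.1%) were on. Of the 19031 annotated genes, 7697 (40.4%) were on, 10849 (57.0%) were off and 485 (2.55%) were unsettled. On both arrays, 6948 genes (36.5%) were brighter than every negative control. The other 749 genes that were on had no probe brighter than every control on both arrays. Of the negative controls themselves, 4 of 943 (0.424%) reached the limit on both arrays. The share of genes on depended on how many probes a gene had, since it was 51.9% of the 9129 genes with several probes and 29.9% of the 9902 genes with 1 probe.

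An intensity is a property of a probe as well as of its transcript, because probes hybridize with different strength. Intensities of different genes are therefore given side by side but not as ratios of transcripts, and off means that no probe rose above the controls, not that no transcript was there. Vim, which encodes the intermediate filament protein vimentin, shows how wide the difference between probes can be. Its brighter probe gave 8862 and 8527 units on SCC-7 (1) and SCC-7 (2), and its other probe gave 56.2 and 60.1 units, below the median control. Below, each gene is given by its brightest probe, with the value on SCC-7 (1) before that on SCC-7 (2).

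**Figure D1:**
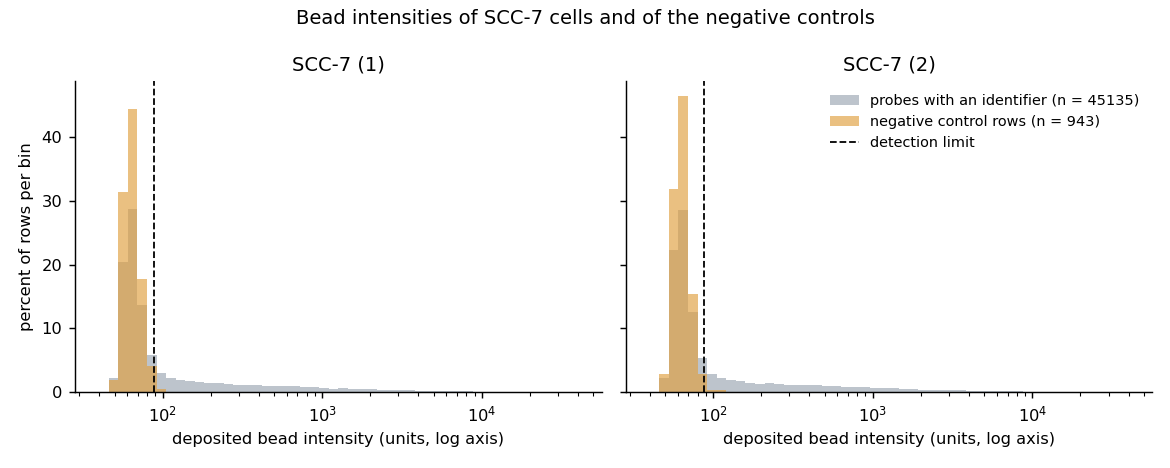
Distribution of bead intensity (log axis, in units) on each SCC-7 array, as the percent of rows per bin, for 45135 probes and 943 negative control rows; the dashed line is the detection limit of 88.8 units on SCC-7 (1) and 87.1 units on SCC-7 (2). Most probes lie within the range of the controls. The probes right of the line, 30.0% and 30.5% of all, reach up to 32476 and 34588 units.

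The 2 arrays gave nearly the same picture. After background correction and quantile normalization of the pair, the probes that were on correlated at r = 0.9967 across 13123 probes, which are not independent replicates. Their median absolute difference was 0.095 on the log2 scale, a fold of 1.07, and 95% of them differed by less than 0.33, a fold of 1.26. Dim probes varied more, with a median difference of 0.14 among the 5046 probes under 200 units and of 0.07 among the 2568 probes above 1000 units. No probe that was on differed by 2-fold, and 37 (0.282%) differed by 1.5-fold. Only 0.00665% of intensities were identical, so neither array repeats the other.

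The 25 genes with the brightest probes held 13 ribosomal protein genes, led by Rplp1 at 30344 and 32230 units and Rps9 at 29846 and 30473 units. Eef1a1, the factor that brings aminoacyl-tRNA to the ribosome, gave 29187 and 28710 units. These genes serve every growing cell. As means of both arrays the 25 ran from 31287 units for Rplp1 to 22432 units for Rps4x, an order of probes and not of transcripts, and together they held 8.26% of the summed intensity above background.

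The other bright genes were more varied. Cstb, which encodes cystatin B, an inhibitor of lysosomal cathepsins, gave 29127 and 30629 units. Mif, a secreted cytokine that many tumors make, gave 28555 and 28690 units. Both are found in a wide range of cells. Mt1, a metallothionein that binds zinc and copper, gave 26804 and 29786 units. Fth1, the heavy chain of the iron store ferritin, gave 28035 and 27490 units. Storage of metals was thus represented by 2 of the 25 genes. Cd63, a tetraspanin of late endosomes and exosomes, gave 27146 and 27753 units. Lgals1, the secreted lectin galectin 1, gave 23142 and 25560 units. The tubulin genes Tubb5 and Tuba1b and the cyclophilin gene Ppia were also in the list, at 23801 to 25130 units over both arrays. The entry Ubb-ps is annotated as a pseudogene of ubiquitin B, whose probe can share sequence with its functional relatives, so that its 27318 and 27976 units cannot be given to 1 gene.

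Aldh3a1 was also among the 25. It encodes an aldehyde dehydrogenase that is abundant in the cornea and in the stomach and that oxidizes aldehydes formed from lipids. Its probe gave 25880 and 28207 units. Of the other genes discussed as markers of stem-like cells in squamous carcinoma, 2 were on, the membrane protein gene Ly6e at 8843 and 9839.8 units and the drug efflux pump gene Abcb1b at 444 and 469 units. The remaining 10 were off, which makes 3 on among 13 named (23.1%), against 40.4% of all genes. Cd44 and Bmi1, also used as such markers but held in other lists, were on at 1417 and 1481 units and 194 and 184 units. For Cd44 2 of 9 probes were on. The off members include Prom1, which encodes CD133, at 72.9 and 70.4 units, Aldh1a1 at 51.2 and 54.8 units and Cd24a at 55.9 and 63.0 units. Of the dehydrogenase genes in that list, therefore, only Aldh3a1 was on.

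Genes of the epithelial state were mostly off. Over 5 lists (simple keratins, stratified keratins, epithelial regulators, junctions, cornified envelope), 13 of 78 named genes (16.7%) were on, against 40.4% of all genes, 60 were off and 5 were unsettled. Of the 13, 10 were brighter than every negative control. At a detection p under 0.05, 20 of the 78 were on, and with the deposited detection p, which is also small for probes below background, 27 were, while the genes on of all 19031 numbered 8471 and 9517 by these rules. Each of the 5 lists stood below the share of all genes, at 4.17% to 29.4%, and the median intensity of the 78 genes was 68.5 units, against 75.4 units over all genes.

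Keratins are made in pairs of a type I and a type II chain, and SCC-7 cells had an uneven set of them. Krt8 and Krt18 form the pair of simple epithelia. Krt8 had the brightest keratin probe at 1286 and 1286 units, and Krt18 gave 124 and 118 units. Krt10, whose usual partner in the upper epidermal layers is Krt1, gave 531 and 532 units. Krt1 itself was off at 67.2 and 65.7 units. Krt14, whose usual partner in the basal layer is Krt5, gave 167 and 177 units. Krt5 was off at 56.4 and 63.3 units. Thus in each of these stratified pairs the type I chain was on and the type II chain was off. Krt17 was on only just, at 89.9 and 89.4 units, inside the upper tail of the negative controls. In all, 15 of the named keratin genes were off, among them Krt6a, Krt6b, Krt13 and Krt19, with brightest probes of 55.2 to 85.9 units.

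The junction list was the lowest of the epithelial ones, with 1 of 24 named genes on. That gene was Pkp3, which encodes the desmosomal plaque protein plakophilin 3, at 319.7 and 345 units. Cdh1, which encodes E-cadherin, the adhesion molecule of the adherens junction, was off with both probes, at 71.3 and 70.6 units and at 82.7 and 76.6 units. Whether these probes report the Cdh1 transcript was not tested, and the call says nothing about E-cadherin protein. Epcam, an adhesion molecule of simple and carcinoma epithelia, gave 51.9 and 53.4 units. Jup, which encodes plakoglobin, a protein common to desmosomes and adherens junctions, gave 54.7 and 56.2 units. All 3 lay under the detection limit on both arrays. Tjp1, Spint1, Cldn7 and Dsg2 were unsettled, each crossing the limit on 1 array, and none of them exceeded 100.5 units.

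Several transcription factors of epithelia were nonetheless on. Tfap2a, a regulator of early ectoderm and of keratin genes, gave 1212 and 1202 units. Klf5, which is active in the dividing layer of epithelia, gave 796 and 785 units. Klf4, which is needed for the skin barrier, gave 599.6 and 539 units. These 3 were clearly above the controls. Trp63, the master regulator of stratified epithelium, was called on at 96.0 and 106 units, but both values were below the brightest control of their array, and its other probe gave 61.0 and 58.6 units. Ovol2, a repressor of EMT genes, was as close to the limit at 93.0 and 90.8 units. The grainyhead factor Grhl2 and the splicing regulators Esrp1 and Esrp2, which keep epithelial transcripts and epithelial splice forms in place, were off at 54.6 to 72.7 units. Elf3 was unsettled, and 11 of the 17 named regulators were off.

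Squamous differentiation was off with few exceptions. Of 17 named genes of the cornified envelope, the protein shell of dead squamous cells, 2 were on. Sprr2a1, a small proline-rich envelope protein with close relatives that its probe may also detect, gave 134 and 109 units. Sbsn, which encodes suprabasin, gave 108 and 112 units. Both were dim. Ivl (involucrin), Lor (loricrin), Tgm1 (the transglutaminase that cross-links the envelope) and Sfn (stratifin) were off at 63.1 to 73.6 units. Stratified keratins, epithelial regulators and cornified envelope genes were thus mostly off in samples named for a squamous carcinoma line. In that order, 3 of 13, 5 of 17 and 2 of 17 named members were on, against 40.4% of all genes. The exceptions above every control included Krt10, Krt14, Tfap2a, Klf4 and Klf5, and Trp63 was at the limit. Krt5, Ivl and Lor were among the members that were off.

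Mesenchymal genes and EMT regulators showed the reverse, with 13 of 17 named genes (76.5%) on, against 40.4% of all genes. All 13 were brighter than every control. Of all genes with several probes 51.9% were on. Axl, a receptor tyrosine kinase bound by Gas6, had the brightest probe of the list at 11936 and 10962 units. Vim followed at 8862 and 8527 units. Sparc, a matrix-binding glycoprotein, gave 4362 and 4809 units. All 6 listed factors of the Snail, Zeb and Twist families were on. Twist2 was the brightest of the 6 at 1789.6 and 1903 units. Zeb1 gave 765 and 831 units, and Zeb2 gave 179 and 194 units. Snai1 gave 383 and 428 units. Snai2 was close to it at 311 and 305 units. Twist1 gave 444 and 514 units. By the brightest probe none of these 6 was near the detection limit, and the lowest of them, Zeb2, was at 2.95 times the median control. Zeb2 was on with 1 of its 5 probes, and Zeb1 and Snai1 each with 1 of 2. Snai2, Twist1 and Twist2 had 1 probe each.

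**Figure D2:**
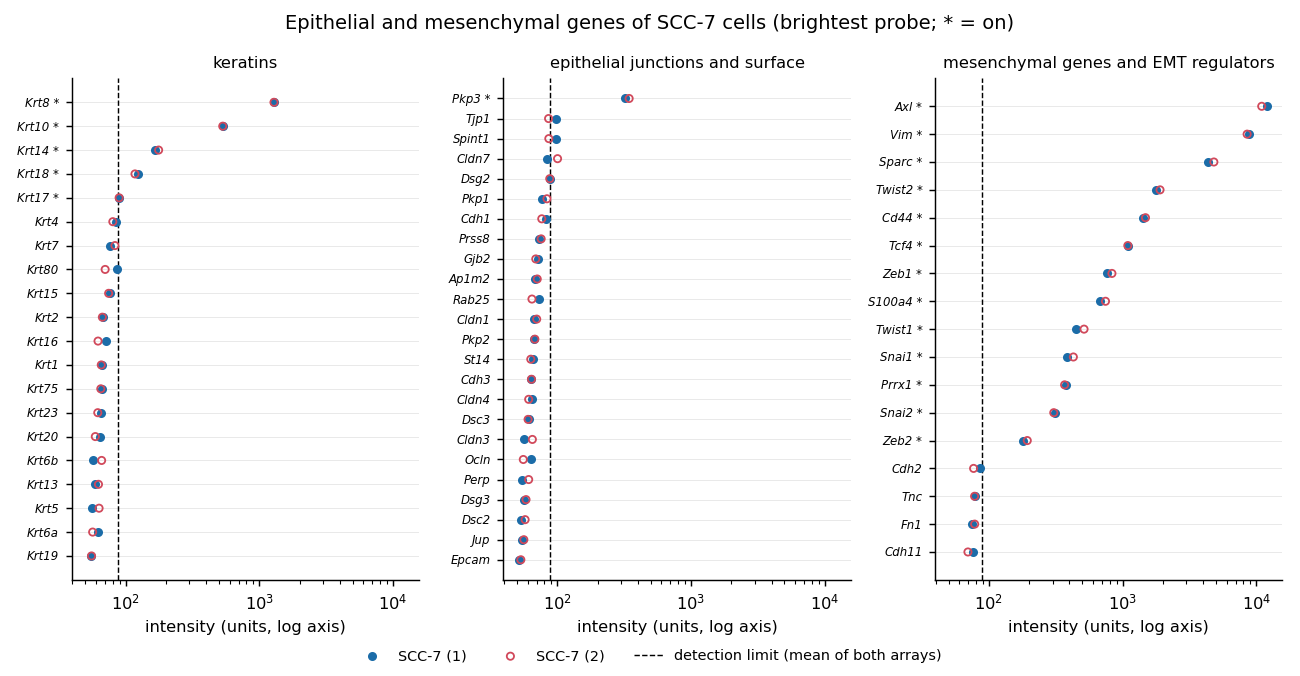
Intensity (log axis, in units) of the brightest probe of each named gene on SCC-7 (1) (filled) and SCC-7 (2) (open) for keratins, junction genes and mesenchymal genes, with the detection limit dashed and genes that were on starred. Nearly all junction genes sit left of the limit with Pkp3 at 320 and 345 units as the one gene on, whereas 13 of 17 mesenchymal genes sit right of it.

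The other 4 mesenchymal genes were off, and they include defining ones. Fn1 (fibronectin) gave 74.8 and 78.2 units, and Cdh2 (N-cadherin) gave 85.6 and 76.8 units. Cdh11 and Tnc (tenascin C) were off as well. The fibroblast and smooth muscle list was in between, with 6 of 16 genes (37.5%) on, near the 40.4% of all genes. Col5a1, a chain of type V collagen, was bright at 4989 and 4414 units. Pdgfra, a receptor of platelet-derived growth factors, gave 804 and 884 units. Yet both chains of type I collagen were off, Col1a1 at 69.5 and 64.0 units and Col1a2 at 73.2 and 68.7 units. Postn, Fap, Pdgfrb, Tagln and Myh11 were off too, so the set of fibroblast genes on was partial.

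Adhesion to the basement membrane was the epithelial function whose genes were mostly on, with 10 of 15 named (66.7%), against 40.4% of all genes. Among all genes with several probes 51.9% were on. Plec, which encodes plectin, the linker between keratin filaments and hemidesmosomes, gave 7526 and 8053 units. It was on with 3 of its 14 probes, and Dst with 3 of 12. Cd151, a tetraspanin partner of laminin-binding integrins, gave 7526 and 7809.9 units. Itgb4, the integrin chain specific to hemidesmosomes, gave 1600.0 and 1605 units. Its partner chain Itga6 was off at 77.3 and 82.3 units, as was the hemidesmosomal collagen gene Col17a1 at 83.5 and 74.5 units. The laminin gene Lamc1 gave 1020.5 and 1140.5 units, and Itga3, the chain of another laminin receptor, gave 881 and 929 units. Plectin and these integrins are also made by cells other than keratinocytes.

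Promoter sequences were at hand for part of these genes, and whether they bear on the calls was not tested. They covered 13 of the 26 listed junction genes and did not include Cdh1, Twist1 or Zeb1. Snail and Zeb factors are known to bind the E-box CAGGTG, of which CACCTG is the reverse complement. RefSeq windows of 300 bases, from 250 bases before to 50 bases after a gene's start, were searched for both words, which together cover both strands. Of all 32851 windows 20.2% held a match, and of the windows of genes that were on in SCC-7 cells 16.5% did, against 21.9% for genes that were off. In the junction list 10 of 15 windows (66.7%, from 13 genes) held a match. Of the windows of junction genes that were off, 8 of 10 (80.0%) held one. In the mesenchymal list it was 3 of 17 (17.6%). Other lists had high shares too, with 4 of 5 windows of simple keratin genes and 7 of 16 windows of basement membrane adhesion genes, a list mostly on. Windows of genes that were on held a median of 21 CpG dinucleotides, against 7 for genes that were off.

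The windows below, in GRCm38.p6, were chosen after their values were seen to show the word in junction genes that were off and its absence from the genes with the brightest mesenchymal probes. They do not stand for their lists, where 8 of 10 windows of off junction genes and 3 of 17 mesenchymal windows held a match. Capitals mark CAGGTG or CACCTG. Epcam (chr17:87635729-87636028, plus strand) had 2 matches, Cldn4 (chr5:134946885-134947184, minus strand) had 2, Rab25 (chr3:88548230-88548529, minus strand) had 2, and Ap1m2 (chr9:21312284-21312583, minus strand) had 4. Vim (chr2:13574061-13574360, plus strand) and Axl (chr7:25788684-25788983, minus strand) had 0 each.
Epcam: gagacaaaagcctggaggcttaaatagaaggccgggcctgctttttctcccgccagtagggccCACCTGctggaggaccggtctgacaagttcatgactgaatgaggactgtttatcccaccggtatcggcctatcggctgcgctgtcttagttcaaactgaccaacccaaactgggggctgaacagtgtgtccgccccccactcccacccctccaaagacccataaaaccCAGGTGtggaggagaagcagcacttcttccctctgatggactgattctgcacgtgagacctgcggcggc
Cldn4: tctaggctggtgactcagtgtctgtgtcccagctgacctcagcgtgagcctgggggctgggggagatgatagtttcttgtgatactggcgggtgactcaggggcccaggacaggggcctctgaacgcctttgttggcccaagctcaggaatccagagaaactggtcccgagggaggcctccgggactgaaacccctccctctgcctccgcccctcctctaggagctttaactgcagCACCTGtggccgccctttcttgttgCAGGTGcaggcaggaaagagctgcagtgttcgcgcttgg
Rab25: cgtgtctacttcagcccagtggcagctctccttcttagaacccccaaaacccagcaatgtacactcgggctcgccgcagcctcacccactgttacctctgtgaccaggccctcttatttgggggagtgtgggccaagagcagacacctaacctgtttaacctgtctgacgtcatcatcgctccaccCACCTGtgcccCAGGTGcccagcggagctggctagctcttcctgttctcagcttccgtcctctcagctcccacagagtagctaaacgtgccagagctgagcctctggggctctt
Ap1m2: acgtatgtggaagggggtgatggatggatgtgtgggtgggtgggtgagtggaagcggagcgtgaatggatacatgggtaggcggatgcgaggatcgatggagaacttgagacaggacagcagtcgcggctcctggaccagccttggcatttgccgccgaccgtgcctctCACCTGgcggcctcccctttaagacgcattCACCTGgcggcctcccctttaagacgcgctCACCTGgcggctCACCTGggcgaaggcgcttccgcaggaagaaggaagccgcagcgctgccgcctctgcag
Vim: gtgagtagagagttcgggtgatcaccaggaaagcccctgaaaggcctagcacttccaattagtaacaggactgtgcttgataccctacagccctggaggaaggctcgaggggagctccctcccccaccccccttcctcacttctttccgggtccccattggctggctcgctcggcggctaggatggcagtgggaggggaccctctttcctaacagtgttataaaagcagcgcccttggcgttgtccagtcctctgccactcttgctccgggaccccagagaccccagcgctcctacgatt
Axl: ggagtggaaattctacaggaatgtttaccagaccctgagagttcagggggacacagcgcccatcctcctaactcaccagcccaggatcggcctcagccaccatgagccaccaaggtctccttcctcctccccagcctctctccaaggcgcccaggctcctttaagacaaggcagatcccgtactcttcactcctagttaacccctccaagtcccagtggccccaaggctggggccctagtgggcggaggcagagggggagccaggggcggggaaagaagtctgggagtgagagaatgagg

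Epcam was given above, and the other 3 junction genes shown were off as well. Cldn4, a claudin of tight junctions, gave 64.3 and 61.1 units. Rab25, a small GTPase of epithelial recycling endosomes, gave 72.6 and 64.7 units. Ap1m2, the epithelial subunit of a clathrin adaptor that sorts proteins to the basolateral side, gave 67.8 and 70.8 units. A match of 6 bases describes the sequence and does not show that a factor bound there.

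Markers of most other cell types were mostly off. The count that follows leaves out salivary gland genes (7 of 12 on) and fibroblast and smooth muscle genes (6 of 16 on), which are given apart. Across 9 lists (leukocytes, mast cells, endothelium, skeletal muscle, melanocytes, neural cells, adipocytes, liver and pluripotent cells) 8 of 85 named genes (9.41%) were on, against 40.4% of all genes. Of the others, 69 were off and 8 were unsettled. On SCC-7 (1) alone 14 were detected and on SCC-7 (2) alone 10, so several of them lay at the limit. Mast cell, melanocyte, neural, adipocyte, liver and pluripotency lists had 0 members on.

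Of 17 named leukocyte genes 4 were on. Laptm5, a lysosomal membrane protein of blood cells, was the brightest at 439.6 and 457 units. Coro1a, an actin-binding protein of leukocytes, gave 169.7 and 190.1 units. S100a8, which keratinocytes also make, gave 119 and 113 units. Csf1r, the receptor of the growth factor made by Csf1 and a marker of macrophages, was nearer the limit at 109 and 98.5 units. Ptprc, which encodes the pan-leukocyte antigen CD45, was off at 61.1 and 61.6 units, and so were Cd3e, Cd4, Cd8a, Ms4a1, Itgam and Adgre1, at 56.8 to 72.4 units. Of 10 endothelial genes 2 were on, Eng at 168 and 173 units and Kdr, a receptor of vascular endothelial growth factor, at 92.5 and 90.7 units, just above the limit, while Pecam1 and Cdh5 were off. Of 10 muscle genes 2 were on, Des, which encodes desmin, at 220.3 and 226 units and the troponin gene Tnnt3 at 100.2 and 90.3 units, while Myod1 and Myog were off.

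Salivary gland genes were on in 7 of 12 cases (58.3%), against 40.4% of all genes. Aqp5, the water channel of the gland's secretory cells, which other epithelia also make, gave 9215 and 9430.2 units with its single probe. Bpifa2, which encodes a secreted protein of the parotid gland, gave 2073 and 2312 units. Dcpp1, a secreted protein of demilune cells, gave 880.4 and 909 units, though it has near-identical neighbours that the probe may share. Smr3a, A2ml1, Mucl2 and Prol1 were on at 120.3 to 211.6 units. The kallikrein gene Klk1, the amylase gene Amy1, Smgc, Cldn10 and Ltf were off, at 62.3 to 85.8 units, so the secretory set was partial.

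Hox genes give body regions and limbs their position, and cells in culture often keep the set of the site they came from. In SCC-7 cells 13 of 38 named Hox genes (34.2%) were on, not far from the 40.4% of all genes, and they were spread over all 4 clusters. Hoxc6 had the brightest probe at 1897 and 2112 units, and Hoxc9 followed at 1506 and 1741 units. Hoxb7 gave 1385 and 1484 units, and Hoxa7 gave 1302 and 1285 units. The 4 brightest thus belonged to paralog groups 6, 7 and 9. Hoxd8 gave 569 and 575 units, Hoxa5 gave 326 and 353 units and Hoxd9 gave 293 and 328 units. Hoxb5, Hoxa9, Hoxb6, Hoxb4, Hoxa13 and Hoxd4 were dimmer, at 101.2 to 223 units. No gene of paralog groups 1, 2 or 3, the groups of the hindbrain and the branchial arches, was on, although Hoxa2 and Hoxd3 were unsettled. No gene of groups 10, 11 or 12 was on either, and Hoxa13, at 119.6 and 109 units, was the only one of group 13. In clusters B and D the genes on were neighbours among the listed genes, whereas in clusters A and C they were interrupted, as by Hoxc8, which was off at 78.3 and 71.9 units between Hoxc6 and Hoxc9.

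**Figure D3:**
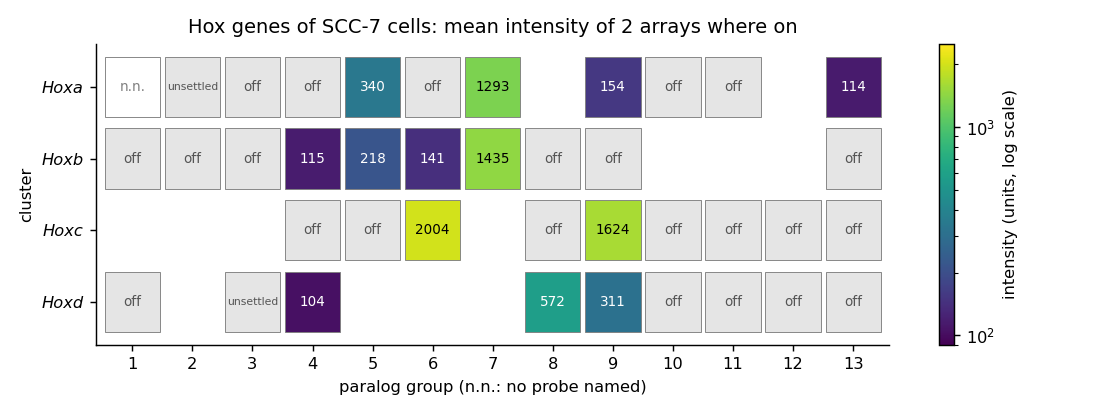
Hox genes of SCC-7 cells by cluster (rows) and paralog group (columns), with the mean intensity of the 2 arrays in units printed and coloured on a log scale where the gene was on. The genes on lie in groups 4 to 9 with Hoxa13 as the exception, and groups 1 to 3 and 10 to 12 hold none.

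Other homeobox and T-box genes of the head and limbs were on in 9 of 27 cases (33.3%), against 40.4% of all genes. Msx1, which acts in the jaw, tooth and limb bud, gave 574 and 602 units. Tbx3, a T-box repressor of limb and mammary development, gave 552 and 581 units. Otx1, a factor of the forebrain and sense organs, gave 474 and 512 units. Meis1 and Meis2, which pair with Hox proteins on DNA, were on at 326 to 502 units over both arrays. Dlx1 gave 363 and 350.0 units, while Dlx2, its neighbour in the genome, was off at 56.2 and 65.6 units.

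Of 88 named oncogenes 52 (59.1%) were on, compared with 40.4% of all genes, 34 were off and 2 were unsettled. The counts of the oncogene and suppressor lists below stand beside the same 40.4%. Several probes were present for 50 of the 88, and of all genes with several probes 51.9% were on. The median intensity of the 88 was 135.7 units, against 75.4 units over all genes.

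Of cell cycle oncogenes 10 of 12 were on. Ccnd1, which encodes cyclin D1, the partner of Cdk4 and Cdk6 at the entry to the cycle, had the brightest probe of all oncogenes at 13218 and 13882 units. Cdk4 gave 2443 and 2548 units, whereas Cdk6 was near the limit at 105 and 105 units. Mdm2, which encodes the ligase that marks p53 for degradation and is itself induced by p53, gave 3851 and 4246 units, and another probe gave 3816 and 4002 units. Ccnd3 and Ccnd2, the other D cyclins, gave 1709 and 1718 units and 837 and 799 units. All D cyclins were therefore on. Ccne1 was on just above the limit at 98.4 and 95.9 units, and Ccne2 was off.

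Of RAS and RAF genes 5 of 6 named were on. Nras gave 2086 and 2166 units. The related GTPase genes Rras and Mras gave 1958 and 2028 units and 1036 and 1120.1 units. Araf gave 489 and 469 units, and Braf was off at 64.1 and 60.3 units.

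Receptor tyrosine kinases were on in 8 of 19 cases, close to the share of all genes. Igf1r, the receptor of insulin-like growth factors, gave 635 and 618 units. Egfr, the receptor most often studied in head and neck carcinoma, gave 567 and 576 units, and 4 of its 6 probes were on. Erbb2, its partner in dimers, gave 368 and 375 units. Of the same family, Erbb3 was off at 58.1 and 66.1 units and Erbb4 was off at 65.2 and 59.6 units. Met, the receptor of hepatocyte growth factor, was off at 69.9 and 67.2 units. Alk, which is best known from the nervous system, gave 232 and 262 units with 1 of its 2 probes, the other being off at 65.6 and 65.7 units. Ddr1, a collagen receptor, and Epha2, an ephrin receptor, were on at 238.5 to 269.9 units, and Fgfr1 and Fgfr2 were on at 110.3 to 128 units.

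Among cytoplasmic kinases 4 of 14 were on. The serine kinase gene Pim3 gave 2653 and 2579 units. Src, the membrane-bound tyrosine kinase, gave 1305 and 1126 units. Its relatives Yes1 and Fyn were off, and so were Akt1 and Akt2, while Pik3ca was unsettled at 88.0 and 96.0 units.

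Of the AP-1, ETS and REL genes 10 of 13 were on. Ets2 gave 1920.1 and 2099.7 units, and Ets1 gave 1448 and 1562 units. Fosl2 and Junb, subunits of AP-1, gave 1560.4 and 1679 units and 1442 and 1514 units. Fos itself was off at 71.2 and 76.2 units, as was Fosb. Rela, the main activating subunit of NF-kappaB, gave 1328 and 1407 units. Of the MYC family and its partners 2 of 6 were on. Myc, a driver of growth and ribosome synthesis, gave 209 and 189 units with 1 of its 2 probes, and Mycn and Mycl were off.

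The remaining oncogenes act in survival and in WNT, hedgehog and Hippo signalling, and 13 of 18 were on. Ctnnb1, which encodes beta-catenin, gave 1664 and 1632 units. Mcl1, which blocks apoptosis at mitochondria, gave 896 and 987 units. Bcl2l1, of the same family, gave 579 and 699 units, and Bcl2 was dim at 106 and 112 units. Smo, the signal transducer of hedgehog, gave 930.4 and 907 units, but Gli1 and Gli2, the transcription factors at the end of that pathway, were off at 64.1 to 68.4 units. Yap1 and Wwtr1, the paired effectors that the Hippo pathway restrains, were on at 782 and 824 units and 544 and 541 units. Tert, the catalytic subunit of telomerase, was off at 59.2 and 53.9 units.

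**Figure D4:**
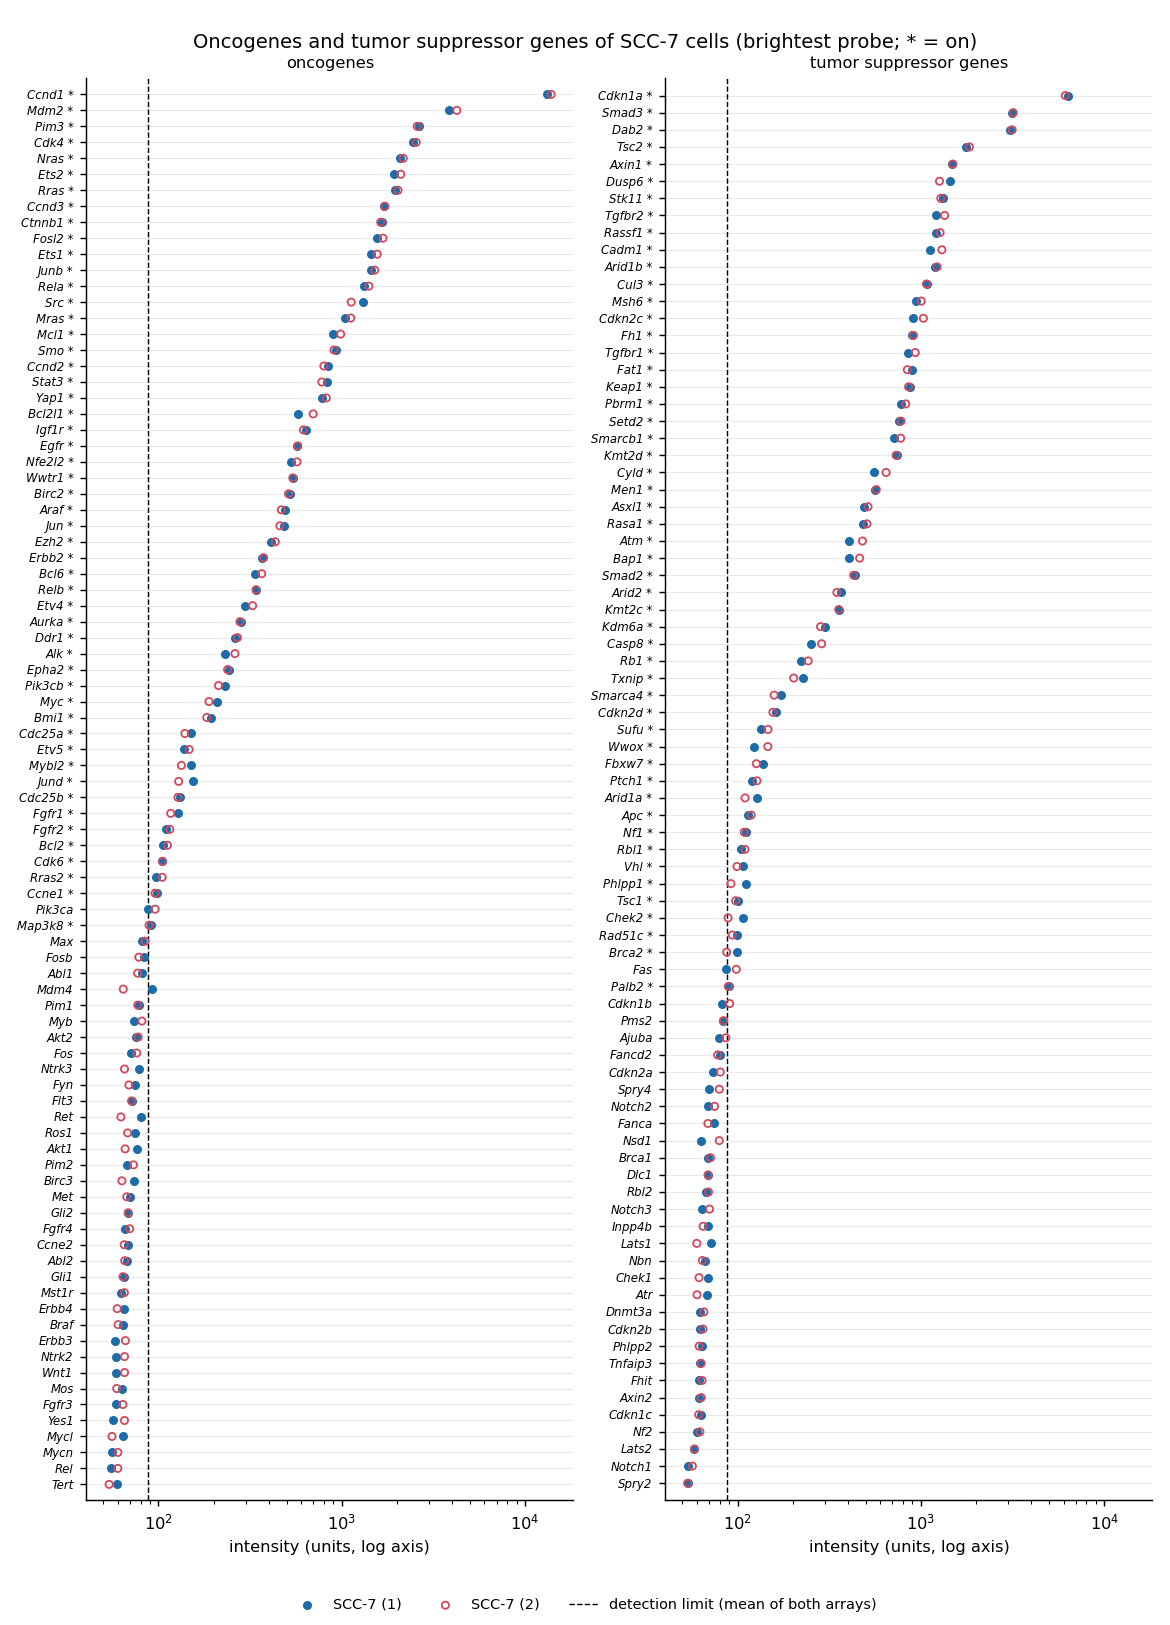
Intensity (log axis, in units) of the brightest probe of each named oncogene (left) and tumor suppressor gene (right) on SCC-7 (1) (filled) and SCC-7 (2) (open), with the detection limit dashed and genes that were on starred. Ccnd1 at 13218 and 13882 units and Cdkn1a at 6322 and 6137 units head the 2 columns, and 34 oncogenes and 28 suppressors lie off at the bottom.

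Of 82 named tumor suppressor genes 52 (63.4%) were on, 28 were off and 2 were unsettled, compared with 40.4% of all genes. Several probes were present for 57 of the 82, and of all genes with several probes 51.9% were on. The median intensity of the 82 was 121.2 units. Of the 52, 45 were brighter than every negative control.

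Genes that restrain the cell cycle were on in 5 of 10 cases. Cdkn1a, which encodes the inhibitor p21 and is a main target of p53, had the brightest probe of all suppressors at 6322 and 6137 units. Its other probes gave 2060 and 1993 units and 2019 and 2246 units, so all 3 were on. Cdkn2a, which encodes the inhibitor p16 and, from another frame, the p53 activator ARF, was off with all 3 of its probes, the brightest at 73.7 and 80.6 units. Its neighbour Cdkn2b was off at 62.3 and 64.8 units. Cdkn2c, which encodes the related inhibitor p18, was on at 904 and 1032 units. Rb1, the retinoblastoma gene, gave 223 and 243 units. Cdkn1b was unsettled at 82.7 and 90.6 units. The INK4 family was thus on for Cdkn2c and Cdkn2d and off for Cdkn2a and Cdkn2b.

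Further targets of p53 were on in 14 of 19 cases (73.7%), against 40.4% of all genes. Phlda3, an inhibitor of Akt at the membrane, gave 2589 and 2752 units. Gadd45a, a DNA damage response gene, gave 1777 and 1761 units. Ccng1, an early known p53 target, gave 1436 and 1829 units. Bbc3, which encodes the death inducer PUMA, gave 918 and 1017 units, while Pmaip1, which encodes NOXA, was off at 69.7 and 69.9 units. Many of these genes also have other regulators. No probe was named for Trp53, the gene of p53 itself, so its expression was not read. Whether p53 was active in these cells was not tested.

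Signalling suppressors varied by pathway. Brakes on PI3K, RAS and mTOR were on in 7 of 11 cases. Tsc2, which with Tsc1 holds back mTOR, gave 1770.1 and 1839.5 units, and Tsc1 was near the limit at 100.1 and 97.6 units. Stk11, the kinase LKB1, gave 1323 and 1284 units. Dusp6, a phosphatase that is induced by ERK and acts on it, gave 1438 and 1264 units. In contrast to Dusp6, the ERK feedback genes Spry2 and Spry4 were off at 53.4 to 79.5 units. Both listed TGF-beta receptor genes and Smad3, which encodes a transducer of their signal, were on. Tgfbr1 gave 849.8 and 932 units, and Tgfbr2 gave 1212 and 1347 units. Smad3 gave 3146 and 3189.8 units. All 3 named Notch receptors were off, with Notch1, a suppressor often mutated in squamous carcinoma, at 53.4 and 56.7 units. Nf2, Lats1 and Lats2 of the Hippo pathway were off as well, at 58.1 to 71.8 units. The giant cadherin gene Fat1 gave 893 and 843 units.

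Chromatin suppressors were on in 12 of 14 cases, the highest share among the suppressor lists. Arid1b, a subunit of SWI/SNF remodelling complexes, gave 1193 and 1226 units, and its paralog Arid1a gave 127 and 109.9 units. The histone methyltransferase genes Kmt2d and Setd2 were on at 737 and 733 units and 761 and 779 units. Nsd1 and Dnmt3a were off. Of genome maintenance genes 6 of 13 (46.2%) were on and 2 of these were above every control, Msh6 at 940.2 and 1005 units and Atm at 404 and 480.3 units. Brca1 was off at 69.1 and 71.2 units, and Brca2 was at the limit with 99.6 and 87.3 units.

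In the last group of suppressors 13 of 17 were on. Dab2, an endocytic adaptor, gave 3075 and 3146 units. Rassf1, a scaffold of RAS and Hippo signalling, gave 1209.8 and 1273 units. Keap1 and Cul3, parts of the ligase that degrades the oxidative stress factor NRF2, gave 869 and 857 units and 1083 and 1073 units, and Nfe2l2, which encodes NRF2, gave 531 and 571 units. Fhit, Dlc1 and Tnfaip3 were off, and the death receptor gene Fas was unsettled.

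Cell cycle and replication genes were on in 20 of 26 cases (76.9%), against 40.4% of all genes. E2f1, which drives entry into DNA synthesis, gave 1544 and 1472 units. Mcm4, a subunit of the replicative helicase, gave 1233 and 1391 units, and the other 5 Mcm genes named were on as well. Cdk1, the kinase of mitosis, gave 378 and 366 units, and Top2a gave 243 and 269 units. The other 6 members were off, and they include genes that dividing cells use. Pcna, the sliding clamp of DNA polymerases, gave 76.2 and 70.8 units. Ccna2, cyclin A2, gave 57.3 and 60.9 units. These values were at background beside 20 members that were on, and whether their probes report their transcripts was not tested.

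Nucleolar genes were on in 16 of 19 cases (84.2%), against 40.4% of all genes. Mybbp1a, which encodes a nucleolar protein that binds p53 and other regulators and that was studied in these cells, was on with 4 of its 5 probes. The brightest gave 1740 and 1982 units, the next ones gave 385 and 398.5 units, 211 and 201 units, and 193 and 167 units, and the last was off at 57.4 and 65.4 units. Npm1, which encodes nucleophosmin, gave 3382 and 3986 units. Polr1a, the largest subunit of RNA polymerase I, gave 1633 and 1795 units.

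Of genes of antigen presentation by MHC class I 12 of 15 (80.0%) were on, against 40.4% of all genes. H2-D1 gave 15116 and 16060.1 units, although class I genes are so alike that its probe may take up transcripts of its relatives. B2m, the shared light chain, gave 13175 and 14867 units. The immunoproteasome genes Psmb8 and Psmb10 gave 7692 and 7905 units and 6074 and 6151 units, while Psmb9 was off at 81.1 and 85.8 units. Tap1 gave 221 and 240.2 units, and Tap2, its partner in the peptide transporter, gave 1999 and 1978 units. Of class II genes 4 of 9 were on, led by the invariant chain gene Cd74 at 221 and 224 units. The classical chains H2-Aa, H2-Ab1 and H2-Eb1 and the activator gene Ciita were off. Among ligands that restrain or engage immune cells 5 of 13 were on. Cd47, which signals to macrophages not to engulf a cell, gave 1093 and 1091 units. Cd274, which encodes PD-L1, gave 303 and 307 units. Pdcd1lg2, Cd80 and Cd86 were off.

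Of 28 named chemokines and cytokines 10 (35.7%) were on, close to the 40.4% of all genes. Cxcl1, which attracts neutrophils, gave 770.5 and 801 units. Csf1, the growth factor of macrophages, gave 697 and 695 units. Ccl7 and Ccl2, which attract monocytes, gave 661 and 718 units and 287 and 259 units. These 4 act on myeloid cells. Il6, Il1a, Il1b and Tnf were off at 61.5 to 68.9 units.

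Of growth factors 14 of 23 (60.9%) were on, against 40.4% of all genes. Vegfb and Vegfa, of the vascular endothelial family, gave 4299.9 and 4641 units and 1252 and 1462 units. Igf2, a fetal growth factor that binds the receptor made by Igf1r, gave 2648 and 2696 units. Fgf7, a factor that mesenchymal cells make for epithelial cells, gave 1316 and 1334 units. Pdgfa, a ligand of the receptor made by Pdgfra, gave 1493 and 1669 units. Ligand and receptor genes were therefore on together for Igf2 with Igf1r and for Pdgfa with Pdgfra. Btc and Hbegf, ligands of Egfr, and Nrg1, a ligand of Erbb3 and Erbb4, were dim at 99.8 to 156 units, and the Egfr ligands Tgfa, Ereg and Epgn were off.

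Proteases of invasion and their inhibitors were on in 17 of 22 cases (77.3%), against 40.4% of all genes. Mmp2, which degrades type IV collagen, gave 7665 and 7253 units. Mmp14, the membrane protease that activates the product of Mmp2, gave 4225 and 4897 units. Timp2, which takes part in that activation and also inhibits both, had the brightest probe of the list at 9688 and 9802 units. The 3 parts of this system were thus all on. Ctsb, cathepsin B, gave 6764 and 7167 units. Mmp9, Mmp3 and Mmp13 were on at 122 to 368 units, and Mmp7 was off at 52.8 and 58.8 units.

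Genes used in most cell types checked the rule. Of 12 named 11 were on, from Tbp at 338 and 335 units to Eef1a1. Hprt gave 979 and 995 units. Sdha, a subunit of the mitochondrial complex that oxidizes succinate, was off at 54.9 and 54.9 units with its probe below the median control. Xist and the Y-linked genes Eif2s3y, Kdm5d and Uty were all off, at 59.5 to 80.6 units. Over all 48 lists 309 of 661 named genes (46.7%) were on, and for 53 listed genes no probe was named here.

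**Figure D5:**
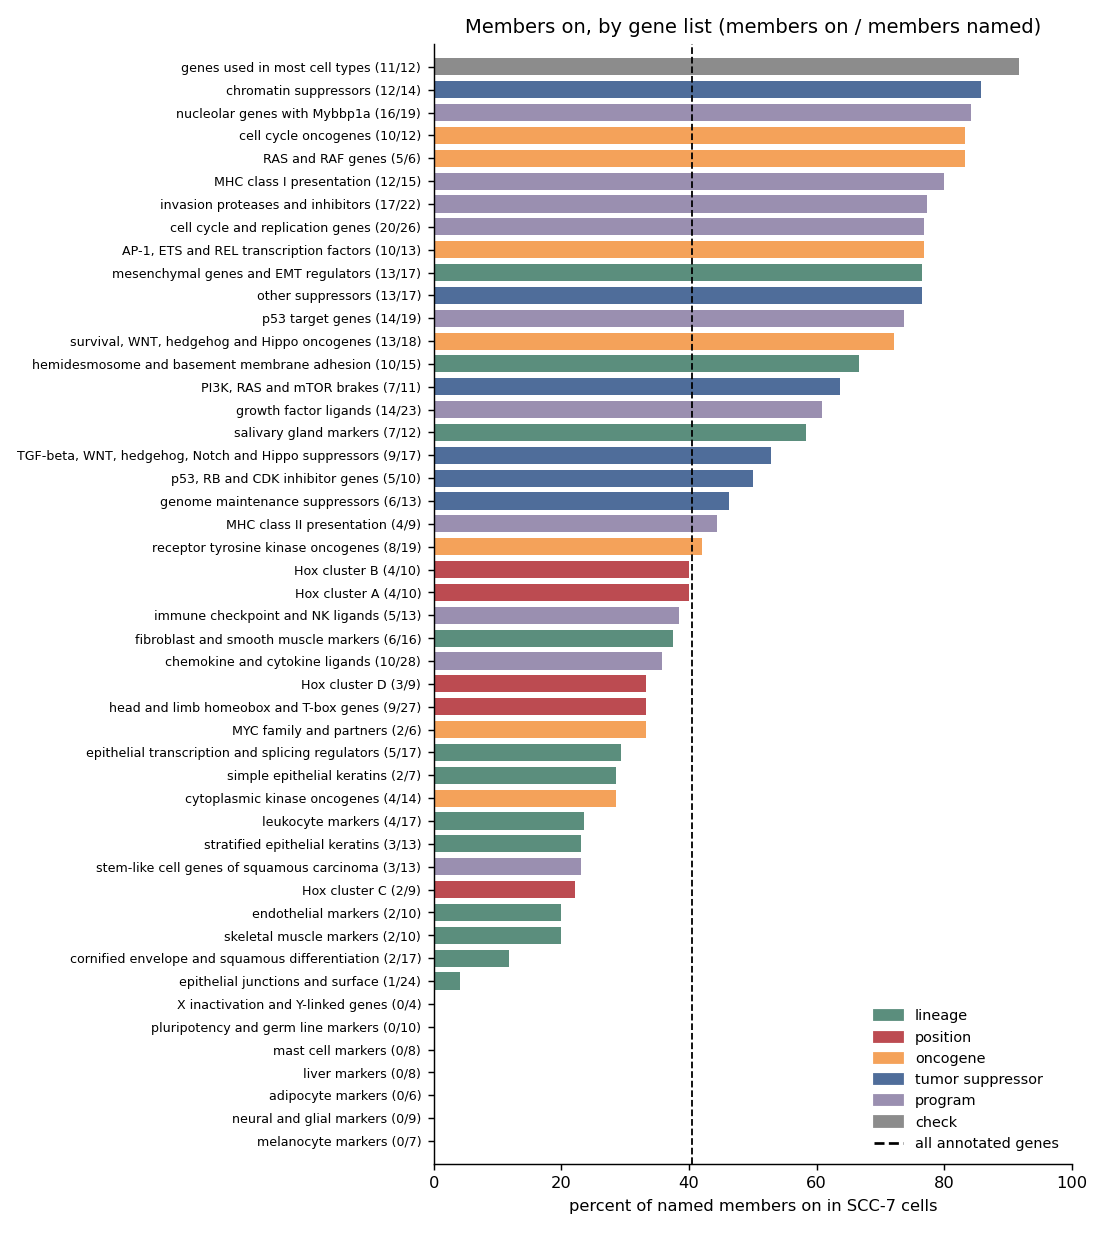
Percent of the named members of each of 48 lists that were on in SCC-7 cells, with members on and members named in brackets and the 40.4% of all annotated genes dashed. Epithelial junctions (1 of 24) lie near the bottom above 7 lists at 0, whereas mesenchymal genes (13 of 17) and nucleolar genes (16 of 19) lie in the upper part.

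Differences between the 2 SCC-7 samples were small and lay among dim genes. The 10 genes with the largest differences among those that were on differed by at least 0.65 on the log2 scale. Cst11, a cystatin of the epididymis, gave 132 and 96.7 units on SCC-7 (1) and SCC-7 (2), a log2 difference of -0.78 for (2) minus (1). Mccc2, a mitochondrial carboxylase subunit, gave 97.9 and 131 units, a difference of 0.75. Of the 10, 7 were brighter on SCC-7 (2), and none exceeded 161 units on either array. Among the 25 brightest genes the differences ran from -0.13 for Tuba1b to 0.22 for Rps4x.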

How the data were processed

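Total RNA of 2 SCC-7 samples was measured on mouse WG-6 v2 BeadChips. The deposited intensity of a probe is the mean over its beads, neither corrected for background nor normalized by the authors, and a detection p-value is deposited beside it. How that p-value was computed is not stated, and it was also under 0.01 for 4270 probes on SCC-7 (1) and 4447 probes on SCC-7 (2) that were dimmer than the median negative control, so it was used in an alternative only. A second deposited table holds the authors' normalized intensity, by a method not given in the sources used here, and served as an alternative.

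Of 954 control rows without an identifier, whose kinds the table does not name, 11 with a median above 100 units over the 12 arrays of the series were set aside and 943 were taken as negative controls. The platform annotation names 1 gene for 34773 probes, several for 18, which were left without a gene here, and none for 10344. Symbols were updated through RefSeq, where 34695 probes matched. The detection p of a probe was the number of negative controls at least as bright, plus 1, over the number of controls plus 1, and it was checked on simulated data. The spread between arrays was taken after normexp on the controls with an offset of 16 and quantile normalization (limma 3.58.1, R 4.3.3). Counts were made with Python 3.11.15, numpy 2.4.6, pandas 2.3.3 and matplotlib 3.10.9. No test between groups was made, and 2 arrays limit the precision.

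Every member of 48 gene lists could be named, with the 25 genes of the brightest probes, the 10 genes of the largest differences and the 5 brightest probes without a symbol. Members and lists were chosen with earlier results of these data known. Alternatives were other detection thresholds, a stricter rule over a gene's probes, genes with 1 probe, other normalizations and each array alone.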

Additional observations from a re-analysis of the deposited data

Results flagged for a closer look

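Of the 10344 probes without a gene symbol, which enter no list, 1720 (16.6%) were on with both SCC-7 samples, that is, above nearly all negative controls, compared with 11398 (32.8%) of the probes with 1 symbol. The brightest of them, ILMN_1238874, averaged 33532.2 units, at 32476 and 34588 units on SCC-7 (1) and SCC-7 (2), and was the brightest probe of both arrays. Among the 25 brightest probes of any kind, 11 had no gene symbol.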

How the results depend on the processing

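Of 62 alternative values, 54 stayed within 1.5 times the reported count or within the spread between arrays, and 8 did not. Asking for every probe of a gene to be on left 4459 genes on in place of 7697, and 2958 genes were on when only the 9902 genes with 1 probe were counted. Epithelial genes on numbered 20 at a detection p under 0.05 and 27 with the deposited detection p, in place of 13. In the 9 lists of other cell types, genes on numbered 16 at a detection p under 0.05, in place of 8. They numbered 5 above every negative control, 28 with the deposited p and 14 without SCC-7 (2). The moves to 2958 and to 14 came from counting fewer genes and from using 1 array. The others came with a looser or stricter rule. Leaving out either array otherwise moved no count by over 1.5 times. No paired analysis was possible because only 1 group of 2 samples was described and no groups were compared.

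A gene on with no probe above every control on both arrays, as 749 of the 7697 were, has no settled call. Whether the probes of a gene that was off report its transcript was not tested. Intensities show no order of transcripts between genes. With 2 samples of unstated independence, the spread says nothing about variation between cultures.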
